A study of Mus musculus with 30 samples.

Results

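The aminoacyl-tRNA synthetases are the enzymes that attach each amino acid to its transfer RNA, and their RNA and promoter chromatin were followed in mouse retinal ganglion cells after injury of the optic nerve. The list held 37 genes, of which 21 make cytosolic enzymes and 16 make mitochondrial ones. Members were found by their older or newer symbol (Sars or Sars1, for example). A symbol ending in 2 placed an enzyme in the mitochondrion, except for Tarsl2, which encodes a cytosolic threonyl-tRNA synthetase and was counted there. Of the 13752 genes in the RNA table, 36 were members. Mars1, the cytosolic methionyl-tRNA synthetase, was not analysed for RNA and was studied by its promoter only. All 36 passed the filter on low counts, which kept 13737 genes, and the lowest count of any member in any library was 12, for Ears2.

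The study followed sorted ganglion cells, the output neurons of the retina, with axons in the optic nerve, in C57BL/6 mice without injury (day 0) and after an optic nerve crush. Retinas were dissociated with papain and the cells were isolated by fluorescence-activated sorting. No sort marker, age or sex is given in the labels. RNA-seq libraries covered day 0 (3 libraries), day 1 (3), day 2 (2), day 3 (3) and day 4 (2). Not analysed here were replicate 3 of day 2 and replicate 1 of day 4. The strain label of day 0 replicates 2 and 3 in RNA reads C57BL/7 and C57BL/8. ATAC-seq, which counts fragments cut from open chromatin, covered day 0 (6 libraries), day 1 (3) and day 3 (6). Some ATAC samples carry a file name of another day in their description, and groups were taken from the title and treatment labels. Whether the replicates are different animals is not in the labels, so a p-value covers just the spread among the libraries at hand. Every comparison with day 0 uses the same day 0 libraries.

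Each cytosolic synthetase loads 1 kind of amino acid onto its transfer RNA for translation of nuclear messages, except the bifunctional glutamyl-prolyl enzyme Eprs. The mitochondrial set, also encoded in the nucleus, serves the few messages of mitochondrial DNA. Gars and Kars each supply both compartments from 1 gene and were counted as cytosolic. In many cell types the transcription factor ATF4, made when the kinases of the integrated stress response phosphorylate eIF2, binds C/EBP-ATF composite elements at cytosolic synthetase genes. Neurons need large amounts of protein synthesis, and inherited variants of several synthetases cause neuropathy.

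Promoter stretches are shown for the 5 cytosolic members that hold the searched core motif. Their RNA rose, as did that of 12 other cytosolic members on day 3. The mitochondrial enzymes for alanine and tyrosine, shown beside them, did not pass the test on any day. RefSeq sequence of build GRCm38.p6 was matched for 28 members, 14 of each compartment. The stretches below run 5′ to 3′ on the gene's strand from 125 bases before the start of transcription to 20 bases after it. Capitals mark matches to TGATGNAA, the core of the composite element, read on either strand. The first is Aars at chr8:111033717-111033861 (plus strand), followed by Gars at chr6:55037876-55038020 (plus), Iars at chr13:49682005-49682149 (plus), Tars at chr15:11399639-11399783 (minus) and Yars at chr4:129189778-129189922 (plus). The mitochondrial pair, Aars2 at chr17:45506707-45506851 (plus) and Yars2 at chr16:16302840-16302984 (plus), holds no match. Aars and Iars were added after their values were seen.
Aars: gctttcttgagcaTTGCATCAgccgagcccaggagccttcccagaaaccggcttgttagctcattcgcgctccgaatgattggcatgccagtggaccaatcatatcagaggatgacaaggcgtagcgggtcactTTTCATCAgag
Gars: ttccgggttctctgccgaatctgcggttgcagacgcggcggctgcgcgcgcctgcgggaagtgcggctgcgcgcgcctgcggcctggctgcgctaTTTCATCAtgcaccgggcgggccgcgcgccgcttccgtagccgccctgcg
Iars: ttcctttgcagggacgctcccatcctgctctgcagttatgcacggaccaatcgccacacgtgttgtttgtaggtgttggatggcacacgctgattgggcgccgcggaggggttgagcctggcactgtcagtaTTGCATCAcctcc
Tars: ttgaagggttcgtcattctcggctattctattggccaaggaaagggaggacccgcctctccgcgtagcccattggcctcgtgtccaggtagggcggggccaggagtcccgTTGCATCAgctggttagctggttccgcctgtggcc
Yars: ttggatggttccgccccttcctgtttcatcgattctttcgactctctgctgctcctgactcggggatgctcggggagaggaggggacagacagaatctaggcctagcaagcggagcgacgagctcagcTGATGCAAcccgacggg
Aars2: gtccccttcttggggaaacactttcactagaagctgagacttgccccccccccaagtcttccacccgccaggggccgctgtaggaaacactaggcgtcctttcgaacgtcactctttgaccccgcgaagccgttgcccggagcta
Yars2: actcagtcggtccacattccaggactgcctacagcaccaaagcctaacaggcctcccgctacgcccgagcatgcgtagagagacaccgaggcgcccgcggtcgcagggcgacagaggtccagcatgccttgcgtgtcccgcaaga

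The core occurred in the window from 250 bases before to 50 bases after the start of 5 of 14 cytosolic members, namely the 5 printed above. It occurred in 0 of 14 mitochondrial members. Of all 32851 RefSeq windows of 300 bases, 1304 (3.97%) held it on either strand. The full form TTGCATCA, which is itself a match to the core, was found in Aars, Iars, Tars and Yars and in 294 of all windows (0.895%). The cyclic AMP response element TGACGTCA was found in no member and in 588 of all windows (1.79%). Aars carried 2 core matches, the first starting 112 bases before the start of transcription and the second at base 10 of the transcript. The Gars match began 30 bases before the start, the Tars match 15 bases before it, and the matches of Iars and Yars lay in the first bases of the transcript, at bases 8 and 4. A match is a description of letters and says nothing of binding.

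Cytosolic synthetase RNA rose after the crush and mitochondrial synthetase RNA mostly did not pass the test. By edgeR's quasi-likelihood test with Benjamini-Hochberg adjustment over all genes (threshold 0.05), 9 of 20 cytosolic members were higher on day 1 than on day 0, 13 on day 2, 17 on day 3 and 15 on day 4. None of the 20 was lower on any of these days, although DESeq2 called Wars lower on day 1 (log2 change of -0.20, adjusted p = 0.0485). Among all genes tested, 5.93% were higher and 5.45% lower on day 1, 14.8% and 14.5% on day 2, 20.4% and 20.1% on day 3, and 19.8% and 19% on day 4. Of 16 mitochondrial members 0, 0, 1 and 1 were higher on days 1 to 4, and 1, 1, 1 and 3 were lower. At an unadjusted p under 0.05, 11, 14, 17 and 15 cytosolic and 5, 2, 3 and 5 mitochondrial members differed from day 0. Of all 13737 genes tested, 3536, 5446, 6537 and 6373 did so on these days. DESeq2 called 1 mitochondrial member higher and 1 lower on day 1.

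The median log2 change of the cytosolic members was 0.22 on day 1, 0.70 on day 2, 1.28 on day 3 and 1.04 on day 4. Over the mitochondrial members it was -0.11, -0.18, -0.11 and -0.19 on the same days. Over all genes tested it was 0.01, 0.04, 0.03 and 0.06. The mean log2 counts-per-million (CPM) value of the 20 cytosolic members was 6.21 to 6.33 in the day 0 libraries and 7.33 to 7.37 in those of day 3, and no library of day 1, 2, 3 or 4 fell within the day 0 range. For the mitochondrial members the mean was 4.03 to 4.12 in day 0 libraries and 3.96 to 4.08 on day 3, so these ranges overlapped. The highest mean level was on day 3 for 16 of 20 cytosolic members, on day 4 for 3 and on day 1 for 1 (Tarsl2). The mitochondrial members had no common day, with 6 highest on day 0, 4 on day 1, 2 on day 2, 3 on day 3 and 1 on day 4.

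**Figure D1:**
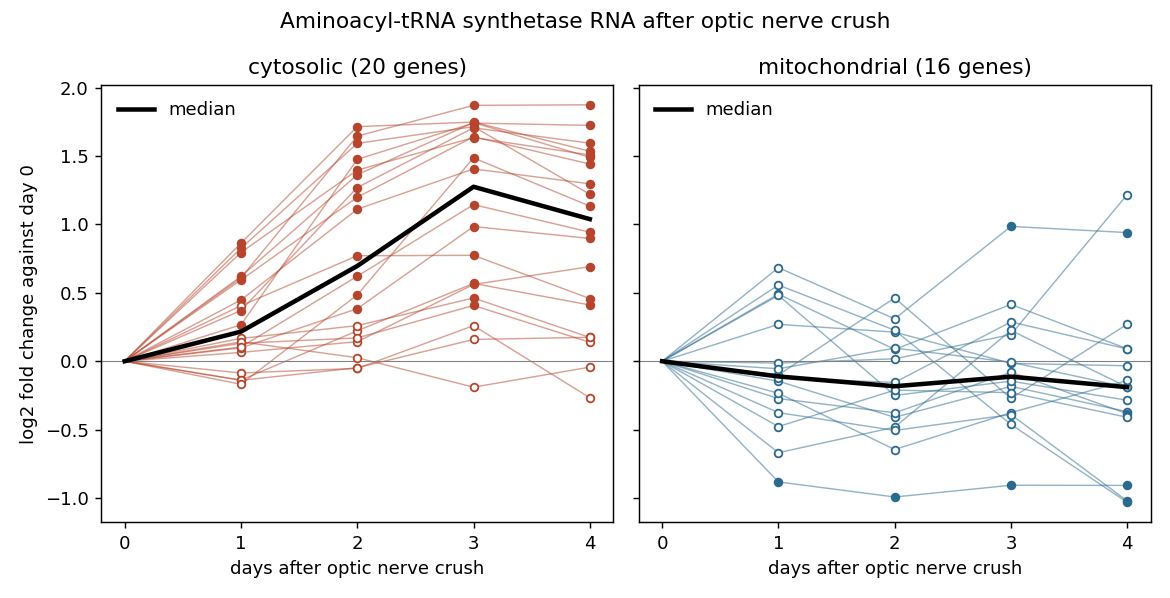
Log2 fold change against day 0 (vertical axis) by days after optic nerve crush for 20 cytosolic and 16 mitochondrial synthetases, 1 thin line a gene, with the median as a thick line. Filled points passed the test at an adjusted p of 0.05 and open points did not: 17 cytosolic points are filled above 0 on day 3 and 1 mitochondrial point, Fars2, is.

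The 8 members with the largest change on day 3 were all cytosolic: Lars, Sars, Gars, Eprs, Cars, Nars, Yars and Tars. Lars, the leucyl enzyme, which also reports leucine to the mTORC1 kinase, stood at 61.7, 48.7 and 53.6 CPM on day 0. It stood at 80.9, 74.3 and 95.0 CPM on day 1 and at 160.1 and 182 CPM on day 2. On day 3 it stood at 196.9, 218.4 and 184.4 CPM and on day 4 at 198 and 202.8 CPM. No Lars library after the crush overlapped day 0, and days 3 and 4 overlapped each other. Its level on day 3 was 3.66-fold that of day 0 (log2 change of 1.87 ± 0.11, SE, edgeR adjusted p = 9.74e-10).

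Sars, the seryl enzyme (chr3:108424865-108445209), had the largest rise of any member on day 1. It measured 176.8, 156.6 and 165.2 CPM on day 0 and 276.8, 292.1 and 338.2 CPM on day 1. It measured 517 and 574.2 CPM on day 2, 575.1, 553.4 and 546.5 CPM on day 3, and 517.9 and 445.2 CPM on day 4. All later libraries lay above day 0, and those of days 2 and 3 overlapped. The change was 1.82-fold on day 1 (log2 0.86 ± 0.09, edgeR adjusted p = 8.11e-06) and 3.36-fold on day 3 (log2 1.75 ± 0.09, edgeR adjusted p = 1.61e-10).

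Eprs joins glutamate and proline to their transfer RNAs and belongs to the multisynthetase complex (chr1:185363044-185428360). Its levels were 212.8, 188.7 and 222.5 CPM on day 0 and 251.9, 258.4 and 240.2 CPM on day 1. They were 560.7 and 596.4 CPM on day 2, 687.2, 744.6 and 654 CPM on day 3, and 732.7 and 641.7 CPM on day 4. The day 1 libraries lay just above day 0 without overlap, and the main step came between days 1 and 2. That step was a log2 change of 1.21 ± 0.09 (edgeR adjusted p = 2.72e-07), the largest of any member between adjacent days. The change from day 0 was 0.27 ± 0.08 on day 1 (edgeR adjusted p = 0.0447), a call kept in 4 of 15 alternatives, and 1.74 ± 0.08 on day 3 (3.34-fold, edgeR adjusted p = 7.49e-11).

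Gars, the glycyl enzyme (chr6:55038007-55079500), stood at 220.6, 148 and 152.4 CPM on day 0 and at 272.3, 274.4 and 253.8 CPM on day 1. It stood at 447.2 and 445.8 CPM on day 2, at 574.2, 604.1 and 567 CPM on day 3 and at 518.3 and 457 CPM on day 4. Day 0 replicate 1 was the highest of the 3 uninjured libraries and still below every later one. The day 3 level was 3.35-fold that of day 0 (log2 1.74 ± 0.12, edgeR adjusted p = 4.05e-09).

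Cars, the cysteinyl enzyme (chr7:143557230-143600090), measured 41.5, 32.3 and 28.2 CPM on day 0, 55.5, 63.2 and 61.7 CPM on day 1 and 101.2 and 103.5 CPM on day 2. It measured 122, 101 and 111.2 CPM on day 3, and 85.7 and 72.4 CPM on day 4. Days 2 and 3 overlapped and both day 4 libraries lay below them, but the difference between days 4 and 3 missed the threshold. The day 3 change was 3.28-fold (log2 1.71 ± 0.13, edgeR adjusted p = 1.59e-08).

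Nars, the asparaginyl enzyme, measured 580.2, 458.3 and 508.2 CPM on day 0 and 680.2, 723.3 and 596.5 CPM on day 1. It measured 1184 and 1302 CPM on day 2, 1708, 1744 and 1594 CPM on day 3, and 1600 and 1513 CPM on day 4. The lowest day 1 library was close to the highest day 0 library without overlap, and each day up to the third lay above the one before. The day 3 change was 3.26-fold (log2 1.71 ± 0.09, edgeR adjusted p = 2.81e-10).

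Yars, the tyrosyl enzyme (chr4:129189760-129219607), measured 93.9, 74.9 and 88.7 CPM on day 0 and 142.4, 120 and 126.3 CPM on day 1. It measured 187.4 and 206.6 CPM on day 2, 260, 266.4 and 276.7 CPM on day 3, and 244.3 and 221.9 CPM on day 4. No 2 days overlapped. The day 3 change was 3.12-fold (log2 1.64 ± 0.10, edgeR adjusted p = 8.28e-10).

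Tars, the threonyl enzyme (chr15:11382301-11399665), measured 47.7, 37.0 and 38.5 CPM on day 0 and 80.3, 70.8 and 62.7 CPM on day 1. It measured 108.8 and 107.5 CPM on day 2, 119.6, 130.4 and 132.6 CPM on day 3, and 120 and 113.6 CPM on day 4. Its uninjured libraries lay below all others, and days 3 and 4 overlapped at the edge. The day 3 change was 3.11-fold (log2 1.63 ± 0.11, edgeR adjusted p = 4.88e-09). Tarsl2, the second cytosolic threonyl enzyme, did not pass the test on any day, with a log2 change of -0.19 ± 0.16 on day 3 (edgeR adjusted p = 0.372).

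**Figure D2:**
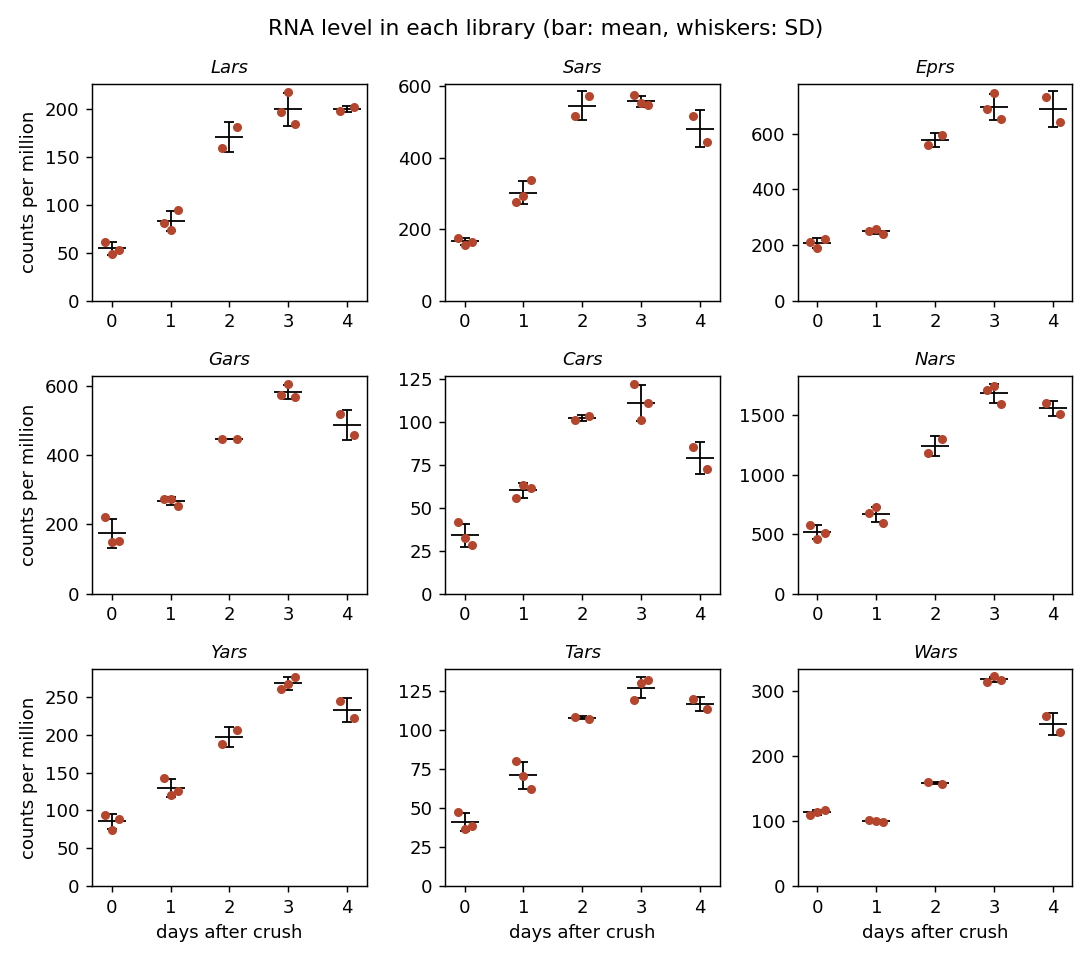
RNA level in CPM (vertical axis, from 0) by days after crush for the 8 most changed members and Wars. Points are libraries, bars are means and whiskers are the SD over 2 or 3 libraries: the day 0 points lie below all later points in the 8 members, while Wars on day 1 lies below its day 0 points.

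Wars, the tryptophanyl enzyme and a target of interferon signalling (chr12:108860030-108894174), followed a later course. It measured 109.4, 113.9 and 116.9 CPM on day 0 and 102.4, 101 and 99.5 CPM on day 1. It measured 159.6 and 157.9 CPM on day 2, 314.6, 322.7 and 316.6 CPM on day 3, and 261 and 237 CPM on day 4. The day 1 libraries lay below day 0 without overlap, and the 3 libraries of day 3 stood above all others. Its log2 change was -0.17 ± 0.07 on day 1 (edgeR adjusted p = 0.145), 0.48 ± 0.08 on day 2 (adjusted p = 0.000184) and 1.49 ± 0.07 on day 3 (adjusted p = 8.59e-11). The step from day 2 to day 3 was 1.00 ± 0.08 (edgeR adjusted p = 1.81e-06), and the change from day 3 to day 4 was -0.35 ± 0.08 (edgeR adjusted p = 0.0359), a call lost without any 1 library of days 3 or 4 and with sequencing components as terms. The summed CPM of 10 interferon-response genes was 165.8, 190.8 and 2811 in the day 0 libraries, so replicate 3 stood far apart, and 94.7 to 106.3 on day 3. All 10 were lower on day 3, and 0 were called on days 1, 2 and 4, with median log2 changes of 1.42, 1.06 and -1.10 and 1, 1 and 0 at an unadjusted p under 0.05. DESeq2 was fitted to all genes, but its calls for this list were not read out. Without day 0 replicate 3, 9, 12, 17 and 14 cytosolic synthetases were higher on days 1 to 4.

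The other cytosolic members changed less. Aars, the alanyl enzyme, rose on every day, to 2.65-fold on day 3 (log2 1.41 ± 0.07, edgeR adjusted p = 1.64e-10). Vars (valine), Rars (arginine) and Iars (isoleucine) were called higher by day 2. Their log2 changes on day 3 were 1.15 ± 0.19, 0.98 ± 0.08 and 0.77 ± 0.13. The Vars call on day 2 was lost with only the groups compared, sequencing components or without day 0 replicate 1 or 3 (edgeR adjusted p = 0.115 to 0.135). With 1 library left on day 2, the Vars change was 0.67 or 0.57, beside 0.62 with all libraries. Without day 2 replicate 2 the Rars change on day 2 was 0.34, beside 0.38. Farsb, the beta subunit of the phenylalanyl enzyme, Hars (histidine), Kars (lysine) and Qars (glutamine) were first called on day 3, at 0.57, 0.56, 0.41 and 0.46, and Kars and Qars missed the threshold on day 4. The Qars call (edgeR adjusted p = 0.0395) was kept in 8 of 15 alternatives. Farsa, the alpha subunit that pairs with Farsb, measured 0.26 ± 0.24 on day 3 and did not pass on any day, nor did Dars, the aspartyl enzyme, at 0.16 ± 0.10. In the authors' deposited table, 5 cytosolic members were higher on day 1 and 10 on day 3, with 0 mitochondrial members in either direction. All 10 were also called here, while Wars, Vars, Rars, Farsb, Hars, Kars and Qars were called on day 3 here only. Wars stood at 0.419 there on day 3 (authors' adjusted p = 0.0762), Vars at 0.556 (0.283) and Rars at 0.319 (0.343). The mitochondrial Fars2 stood at 0.246 (0.697) and Pars2 at -1.058 (0.0682). That comparison is labelled NT.3dpc against NT.no.crush, and whether it used the same libraries was not tested.

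Members of the multisynthetase complex, a particle that holds 8 of the cytosolic enzymes together with 3 scaffold proteins, were counted apart from the others. Of 7 complex members tested, 2, 4, 6 and 4 were higher on days 1 to 4, with a median log2 change of 0.77 on day 3. Of 13 outside it, 7, 9, 11 and 11 were higher, with a median of 1.49 on day 3. On day 3, 1 tested complex member and 2 of those outside it were not called. Lars and Eprs, both among the 8 most changed, are complex members, so the groups overlapped. The difference in medians was not tested. By catalytic fold, 8 of 8 class I and 8 of 11 class II cytosolic members were higher on day 3, and Eprs, which holds a domain of each class, was counted apart. Of the scaffold proteins Aimp1, Aimp2 and Eef1e1, Eef1e1 (0.63 ± 0.18, edgeR adjusted p = 0.00968) and Aimp1 (0.38 ± 0.12, edgeR adjusted p = 0.0177) rose by day 3.

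Between adjacent days, most cytosolic steps came early. From day 1 to day 2, 11 cytosolic members rose and 1 mitochondrial member, Lars2, was called lower, against 6.22% of all genes higher and 6.73% lower. From day 2 to day 3, 7 cytosolic members rose and 1 mitochondrial member, Nars2, was called lower (-0.73 on the log2 scale), against 7.43% and 9.51%. With sequencing components as terms 2 rose, and leaving out 1 library gave 2 (day 2 replicate 1), 4 (day 2 replicate 2) or 5 (day 3 replicate 2), and the Nars2 call was lost in these 4 fits, without day 3 replicate 1 or 3 and with the replicate block. The 7 that rose were Wars, Rars, Yars, Nars, Hars, Farsb and Aars. From day 3 to day 4, 0 members were called higher and 1, Wars, lower, against 0.881% and 0.859% of all genes. The lower calls numbered 2 with DESeq2, 3 with only the groups compared, and 0 without any 1 library of these days or with sequencing components. At an unadjusted p under 0.05, 8 of 36 members differed between days 4 and 3, beside 2069 of all 13737 genes tested.

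Pars2, the mitochondrial prolyl enzyme, measured 8.55, 12.9 and 8.17 CPM on day 0 and 4.51, 5.83 and 5.74 CPM on day 1. It measured 4.49 and 5.45 CPM on day 2, 5.41, 5.15 and 5.26 CPM on day 3, and 4.26 and 6.30 CPM on day 4. Every day 0 library lay above every later one. Pars2 was called lower on all 4 days, with a log2 change of -0.91 ± 0.27 on day 3 (edgeR adjusted p = 0.0127). The calls of days 1 to 4 were kept in 7 of 15, 11 of 14, 14 of 15 and 11 of 14 alternatives. Without day 0 replicate 2 the day 3 change was -0.68 (edgeR adjusted p = 0.0771), and days 1, 2 and 4 also missed the threshold (edgeR adjusted p = 0.175, 0.0896 and 0.115). The day 1 call was also lost without any 1 library of day 1 and with the replicate block (edgeR adjusted p = 0.058).

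Wars2 (tryptophan) and Vars2 (valine) were the other members with the largest falls on day 3 whether or not called. Wars2 measured 16.8, 24.1 and 13.1 CPM on day 0, 31.3, 22.8 and 25.4 CPM on day 1 and 19.2 and 22.9 CPM on day 2. It measured 14.3, 10.5 and 14.4 CPM on day 3, and 9.53 and 8.05 CPM on day 4. Day 3 overlapped day 0, while both day 4 libraries lay below it. Wars2 was not called on day 3 (-0.46 ± 0.22, edgeR adjusted p = 0.104) and fell by day 4 (log2 change of -1.03 ± 0.25, edgeR adjusted p = 0.00355), a call kept in 14 of 14 alternatives. Vars2 measured 5.68, 7.43 and 8.94 CPM on day 0, 3.95, 5.70 and 7.36 CPM on day 1, 6.26 and 4.11 CPM on day 2, 5.12, 6.98 and 4.76 CPM on day 3, and 5.31 and 1.90 CPM on day 4. Its libraries overlapped between days 0 and 3, and it passed on no day by edgeR with all libraries. Alternatives that called Vars2 lower on day 4 included DESeq2 (-1.06, adjusted p = 0.0322) and limma (-1.25, adjusted p = 0.0272).

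Fars2, the mitochondrial phenylalanyl enzyme, was the 1 member of its group that rose. Its log2 change was 0.68 ± 0.24 on day 1 (edgeR adjusted p = 0.0715), 0.99 ± 0.23 on day 3 (adjusted p = 0.00282) and 0.94 ± 0.26 on day 4 (adjusted p = 0.00761). The day 3 call was kept in 15 of 15 alternatives and the day 4 call in 11 of 14. It measured 10.2, 6.91 and 5.09 CPM on day 0 and 12.6, 15.8 and 15.4 CPM on day 3, without overlap. Iars2 (isoleucine) was called lower on day 4 (-0.38 ± 0.14, edgeR adjusted p = 0.0422), a call kept in 8 of 14 alternatives. On day 2 it missed the threshold at a like change (-0.38, edgeR adjusted p = 0.0572), and 7 of 14 alternatives called it.

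The mitochondrial partners of the most changed cytosolic members were followed library by library. Sars2 measured 6.60, 8.20 and 11.2 CPM on day 0 and 5.33, 9.38 and 5.35 CPM on day 3, with overlap. Its other libraries lay between 6.63 and 7.96 CPM on day 1, at 6.26 and 4.83 CPM on day 2 and at 7.03 and 8.72 CPM on day 4. Sars2, which loads serine in the mitochondrion, passed on no day. Nars2 (asparagine) measured 19.5, 14.9 and 15.6 CPM on day 0, 12.9, 15.9 and 17.7 CPM on day 1 and 23.1 and 22.8 CPM on day 2. It then measured 14.1, 13.3 and 13.9 CPM on day 3, and 25.4 and 14.7 CPM on day 4. Its day 2 libraries lay above day 3, and its 2 libraries of day 4 stood far apart.

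Tars2 (threonine) measured 10.6, 10.6 and 15.98 CPM on day 0, 8.15, 9.81 and 8.74 CPM on day 1, 11.8 and 9.61 CPM on day 2, 9.69, 9.30 and 12.7 CPM on day 3, and 10.3 and 8.34 CPM on day 4. Yars2 (tyrosine) measured 20.2, 15.2 and 17.6 CPM on day 0, 19.4, 17.5 and 11.8 CPM on day 1, 14.7 and 17.0 CPM on day 2, 19.2, 22.8 and 22.8 CPM on day 3, and 18.98 and 18.6 CPM on day 4. Both overlapped their day 0 range on day 3 and passed on no day. Cars2 (cysteine) measured 6.55, 3.80 and 5.68 CPM on day 0, 7.38, 5.13 and 9.99 CPM on day 1, 5.65 and 5.68 CPM on day 2, 4.86, 7.42 and 9.06 CPM on day 3, and 6.65 and 4.69 CPM on day 4. Ears2 (glutamate), the lowest member, measured 2.65, 0.734 and 1.01 CPM on day 0, 0.615, 1.15 and 2.54 CPM on day 1, 1.92 and 1.03 CPM on day 2, 1.26, 1.31 and 2.42 CPM on day 3, and 2.43 and 4.36 CPM on day 4. Its SE on day 3 was 0.62 on the log2 scale, and neither Cars2 nor Ears2 passed on any day with all libraries. Without day 0 replicate 1, Ears2 was called higher on day 4 (1.93, edgeR adjusted p = 0.0451).

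Lars2 (leucine) stood far above the other mitochondrial members in read share, at 1966, 1499 and 2502 CPM on day 0, 2566, 2281 and 3481 CPM on day 1 and 1826 and 1519 CPM on day 2. It stood at 1261, 2119 and 2014 CPM on day 3, and 1568 and 1695 CPM on day 4. Its libraries overlapped between day 0 and every later day. Without day 0 replicate 3 it was called higher on day 1 (0.66, edgeR adjusted p = 0.0318). With all libraries the only call by edgeR was from day 1 to day 2 (-0.73 ± 0.22, edgeR adjusted p = 0.0368). That call was lost with DESeq2, the replicate block, sequencing components, without day 1 replicate 3 and without either day 2 library. A microRNA gene on the same chromosome, Mir6236, chosen after its values were seen, moved with it: 845.9, 739.6 and 1882 CPM on day 0, 1283, 1694 and 2856 CPM on day 1, and 842.4, 1298 and 1300 CPM on day 3. Lars2 lies at chr9:123366927-123462666, and the genes do not overlap. What reads the Lars2 count holds was not tested.

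Cytosolic enzymes with a listed mitochondrial enzyme of the same amino acid were set beside it in 16 pairs. Eprs and Fars2 each appear in 2 of these pairs. Dars, Gars, Kars and Qars have no such partner in the list and are in no pair. Mars1, without RNA values, and Tarsl2, left out in favour of Tars, are in no pair either. The cytosolic log2 change was the higher of the pair in 12 pairs on day 1, 13 on day 2, 14 on day 3 and 14 on day 4. The median difference in log2 change was 0.40, 1.25, 1.54 and 1.34 on these days. On day 3 it ran from 2.65 for Eprs over Pars2 to -0.73 for Farsa under Fars2. Both exceptions on day 3 are the phenylalanine pairs, Farsa and Farsb against Fars2.

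**Figure D3:**
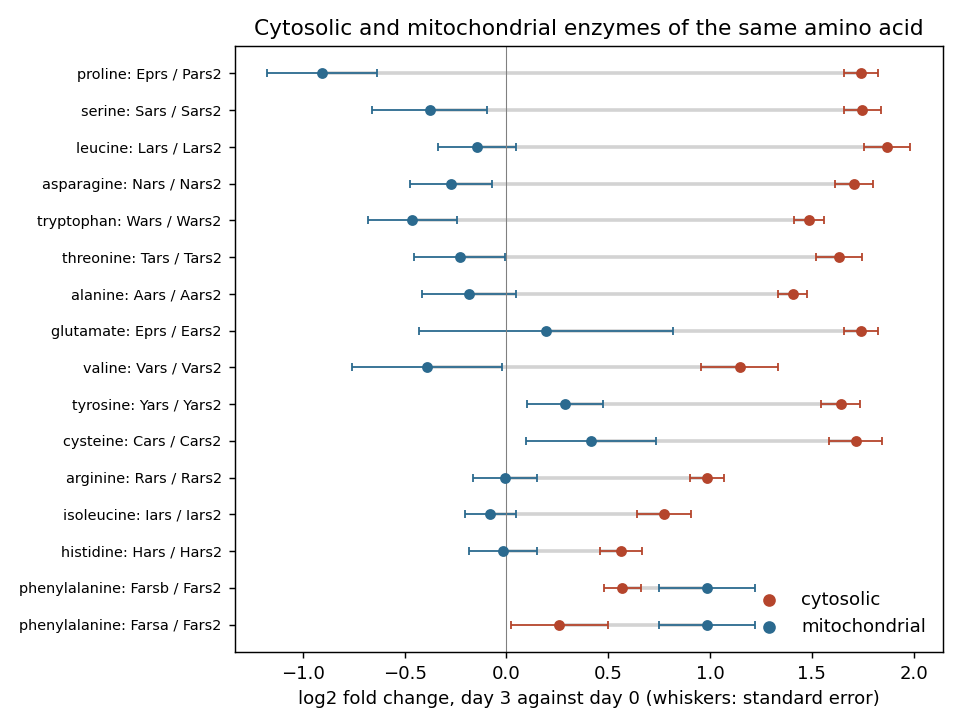
Log2 fold change of day 3 against day 0 (horizontal axis) for 16 pairs of cytosolic and mitochondrial enzymes of the same amino acid, with standard errors as whiskers. The cytosolic point lies to the right in 14 pairs and to the left in the 2 phenylalanine pairs.

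Genes around the synthetases were counted over whole lists, beside the shares of all genes given above (5.93% to 20.4% higher and 5.45% to 20.1% lower). Of 15 genes of the integrated stress response, which include known synthetase regulators and their targets, 14 were higher on day 1 and 15 on days 2, 3 and 4, with a median log2 change of 3.53 on day 3. Atf3, a stress-induced transcription factor, stood at 4.44, 2.25 and 3.77 CPM on day 0 and at 449.8, 528.9 and 481.6 CPM on day 3 (log2 change of 7.14 ± 0.18, edgeR adjusted p = 4.88e-14). Ddit3, which encodes CHOP, rose by 3.48 ± 0.13 (edgeR adjusted p = 4.78e-12). Atf4 RNA stood at 271.1, 165.3 and 153.1 CPM on day 0 and at 572.8, 626.3 and 645.6 CPM on day 3, without overlap. Of 4 eIF2 kinases tested, Eif2ak3 (PERK) was higher on day 3 (1.51 ± 0.17, edgeR adjusted p = 2.4e-06), and 2 were lower: Eif2ak1 and the interferon-induced Eif2ak2 (-2.58 ± 0.70, edgeR adjusted p = 0.00701). Eif2ak2 stood at 12.8, 9.58 and 110.2 CPM on day 0, with replicate 3 far above the others, and at 8.89, 8.34 and 5.01 CPM on day 3.

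Of 9 genes of transfer RNA supply (export, trimming and modification), 1, 2, 3 and 4 were higher and 0, 2, 1 and 2 lower on days 1 to 4, and several of these counts lie near the share over all genes. Xpot, the nuclear export receptor of transfer RNA, stood at 74.0, 65.4 and 59.1 CPM on day 0 and at 229.5, 271.7 and 267.6 CPM on day 3 (log2 change of 1.95 ± 0.10, edgeR adjusted p = 1.59e-10). Nsun2, a transfer RNA methyltransferase, rose by 0.81 ± 0.11 on day 3 (edgeR adjusted p = 1.22e-05). Of 6 cytosolic elongation factors, which bring the loaded transfer RNA to the ribosome, 1, 3, 5 and 2 were higher, with Eef1a1 at 1.17 ± 0.08 on day 3 (edgeR adjusted p = 3.43e-09). Of 13 tested genes of mitochondrial aminoacylation and translation beyond the synthetases, 0 were called higher against day 0 and 2, 1, 0 and 0 lower by edgeR, where 2, 1, 0 and 2 had an unadjusted p under 0.05, and the median was -0.01 on day 3. The DESeq2 calls for this list were not read out.

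Library totals were 19024286 to 27561352 counts for RNA and 20006724 to 72579102 for ATAC. In bulk libraries fewer cells of a type and less RNA per cell cannot be told apart. Ganglion cell markers (8 genes) summed to 7939 to 8489 CPM on day 0 and 5471 to 5631 on day 3, and 6, 7, 7 and 7 of the 8 were lower on days 1 to 4, while 1, Slc17a6, was higher on days 3 and 4. Rod photoreceptor markers summed to 224.7 to 1027 CPM on day 0 and 647.3 to 779.5 on day 3, and microglial markers (7 genes) to 37.7 to 65.7 and 23.7 to 33.9 CPM. On days 1, 2 and 4 the microglial sum was 62.3 to 321.1, 133.7 to 161 and 108.8 to 178.6 CPM, and 3, 4 and 5 of the 7 were higher. Of 6 rod markers, 1, 0, 2 and 0 were higher on days 1 to 4. With 4 genes tested in each list, 0, 2, 1 and 0 amacrine and 0, 0, 2 and 2 bipolar markers were higher. None of the rod, amacrine or bipolar markers was called lower. Of 4 Mueller glia and astrocyte markers, 0, 1, 1 and 1 were higher and 0, 1, 1 and 0 lower. The 1 vascular marker tested was not called. The shares of all genes are given above. No gene of the ganglion cell, rod and microglial lists was at 0 in any library. Day 0 replicate 1 was the highest uninjured library for 10 of the 20 cytosolic members. The part of these differences in the synthetase result was not tested.

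Of the promoter peaks of the synthetases, those called on day 1 were lower, at cytosolic and mitochondrial genes, and their number varied with the model. The 151630 peaks include 61 promoter peaks annotated to 32 members (35 peaks at cytosolic and 26 at mitochondrial genes). Aars, Ears2, Hars, Rars2 and Sars2 had none annotated. By edgeR with a batch term, 0 of 61 were higher and 7 lower on day 1, against 2.52% of all promoter peaks higher and 6.9% lower. On day 3, 1 was higher and 4 lower, against 10.1% and 8.97%. Between days 3 and 1, 0 differed in either direction at the threshold, against 1.17% higher and 0.129% lower, where DESeq2 called 3. At an unadjusted p under 0.05, 15 of the 61 differed between these days, beside 8859 of all 39399 promoter peaks. DESeq2 called 21 peaks on day 1 and 10 on day 3 against day 0. The median log2 change of the 61 was -0.33 on day 1 and -0.13 on day 3, beside -0.09 and -0.05 over all promoter peaks.

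The strongest promoter peak annotated to each member lay lower on day 1 in 30 of 32 members, with a median of -0.42. Of these 32 peaks, 29 had an unadjusted p under 0.05. The exceptions were peaks of Eprs (0.03) and Vars2 (0.39) that do not hold their start windows. The peaks over those windows, not annotated to these members, had log2 changes of -0.40 and -0.24 (edgeR adjusted p = 0.0947 and 0.233). Of the 7880 promoter peaks in the top 20% by mean count, 24.4% were lower on day 1 with a median of -0.41, beside 7 of 32 (21.9%) of the synthetase peaks. At an unadjusted p under 0.05, 6424 of these 7880 differed on day 1. Among the strongest peaks, 4 of 19 cytosolic and 3 of 13 mitochondrial ones were lower, with medians of -0.42 and -0.43, and this difference was not tested. The share of reads in peaks moved with day, at 32.2 to 49.6% in day 0 libraries, 15.7 to 18.6% on day 1 and 17.3 to 45.6% on day 3. With that share as a term, 0 of the 61 peaks were called on day 1 and 1 on day 3. Leaving out day 3 replicate 1 gave 14 calls on day 3, and batch 2 alone gave 18. Day 1 libraries all belong to batch 2 of the authors' covariate table, and within that batch 1 peak was higher and 29 were lower on day 1. Blocking by replicate number left 2 calls on day 1, without the batch term 0 were called, and 0 remained without day 0 replicate 1 or without any 1 of the day 1 libraries.

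Dars held the promoter peak with the largest fall on day 1 (chr1:128416005-128418575). Its 6 day 0 libraries ran from 43.6 to 50.2 CPM with a median of 46.6, and its day 1 libraries measured 29.5, 29.9 and 30.6 CPM. All day 1 libraries lay below day 0, while day 3 (30.8 to 48.0 CPM, median 39.2) overlapped both. The log2 change on day 1 was -0.61 ± 0.15 (edgeR adjusted p = 0.0223). The other calls on day 1 were Yars2, Rars, Tarsl2, Aars2, Kars and Cars2, at -0.57, -0.57, -0.56, -0.54, -0.43 and -0.43. In the authors' deposited table, 0 of 61 member peaks were called higher and 0 lower on day 1. Its log2 changes at these 7 peaks ran from -0.161 (Yars2) to 0.073 (Cars2), with -0.121 for Dars. Of the RNA of these 7 genes, Rars and Kars were called higher on day 3 and the others passed on no day.

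On day 3 the largest fall was at a weak Yars promoter peak (chr4:129211214-129211932). It measured 2.05 to 3.70 CPM on day 0 (median 2.74) and 1.20 to 1.91 CPM on day 3 (median 1.505), without overlap. The log2 change was -0.89 ± 0.17 (edgeR adjusted p = 0.00063), while Yars RNA rose. The start window of Yars lies in another peak (chr4:129187002-129192596), annotated to S100pbp. That peak had a log2 change of -0.17 on day 3 (edgeR adjusted p = 0.297). In the authors' deposited table, 3 member peaks were lower on day 3. They were the weak Yars peak, with a log2 change of -0.946, and 2 of Tarsl2, of which 1 is among those called here. Both Tarsl2 peaks called here were lower (-0.41 and -0.52, edgeR adjusted p = 0.014 and 0.0182), as was the Farsa peak (-0.30, edgeR adjusted p = 0.0422). The 1 higher peak was annotated to Mars1 (chr10:127297161-127297897). It measured 1.5 to 1.83 CPM on day 0 and 1.73 to 3.25 CPM on day 3, with 1.73 to 1.87 in batch 1 and 2.52 to 3.25 in batch 2, and its log2 change was 0.51 ± 0.16 (edgeR adjusted p = 0.0221). No member peak was called higher on day 3 without a batch term, with a term for reads in peaks, or without day 0 replicate 1, 2 or 3 or day 3 replicate 2. The peak over the Mars1 start window (chr10:127309728-127313725) is another one, with a log2 change of -0.05 on day 3 (edgeR adjusted p = 0.8).

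Some starts of transcription lie in a peak annotated to a neighbouring gene. The start window of Aars lies in a peak annotated to Ddx19b (chr8:111031671-111035637), with a log2 change of -0.40 on day 1 (edgeR adjusted p = 0.0839). When peaks were chosen by overlap with the RefSeq start windows, a choice made after the data were seen, 28 peaks of 28 members gave 6 lower and 0 higher on day 1 and 2 lower on day 3.

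**Figure D4:**
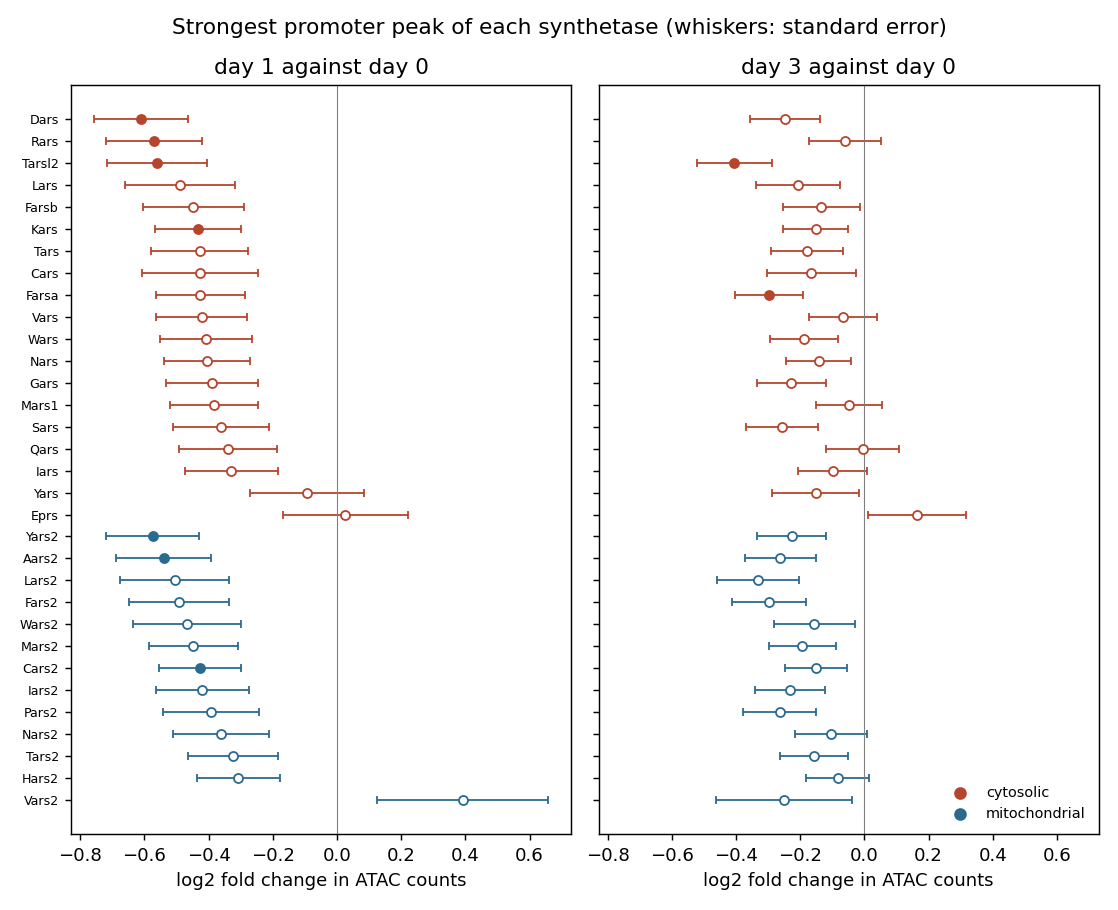
Log2 fold change in ATAC counts (horizontal axis) of the strongest promoter peak annotated to each of 32 synthetases, on days 1 and 3 against day 0. Whiskers are standard errors, and filled points passed the adjusted p threshold of 0.05. On day 1, 30 of 32 points lie below 0 and 7 are filled, and the filled points include cytosolic and mitochondrial genes.

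The deposited footprint tables list sites where a factor's motif lies in a dip of cut sites, with 1 score per day from pooled libraries. They hold 0 sites whose score on day 1 or day 3 was below that of day 0, so a rise of a listed site is no finding. A promoter ATF4 site was listed for 7 of 21 cytosolic members (33.3%), namely Aars, Cars, Eprs, Farsb, Mars1, Nars and Tars. It was listed for 0 of 16 mitochondrial members and for 1283 of all 13752 genes (9.33%). CEBPG, the partner of ATF4 at composite elements, had promoter sites at the same 7 and at Cars2, beside 13.2% of all genes. DDIT3 sites were listed at the same 7 and at Aars2 and Mars2, beside 8.76% of all genes, and these 3 factors share much of their motif, so the same sites recur in their tables. ATF3 sites were listed at 5 cytosolic members (Aars, Cars, Nars, Qars and Vars) and at 4 mitochondrial ones (Ears2, Hars2, Nars2 and Wars2), beside 24.9% of all genes.

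The highest ATF4 scores at members were those of Aars and Tars. The Aars site (chr8:111033727-111033740) had scores of 1.74, 1.91 and 2.63 on days 0, 1 and 3, and the Tars site (chr15:11399663-11399676) 1.75, 1.94 and 2.18. The median over all listed ATF4 sites was 0.1, 0.17 and 0.18. The first core match of the printed Aars stretch and the match of the Tars stretch lie inside these sites, and the second Aars match lies in a DDIT3 site (chr8:111033850-111033859, scores 2.06, 3.03 and 2.94). The matches of Gars, Iars and Yars lie in no listed site of these factors. The stronger Nars site scored 1.3, 1.81 and 1.96, Mars1 (chr10:127311646-127311659) 0.95, 1.06 and 1.24, Eprs (chr1:185363267-185363280) 0.72, 1.11 and 0.87, and Cars (chr7:143600053-143600066) 0.75, 0.9 and 0.8. Farsb and the weaker Nars site stayed at or under 0.32 on each day.

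On day 3 the 6 tested members with a promoter ATF4 site were all called higher, with a median log2 change of 1.67 (0.57 to 1.74). Of the 14 cytosolic members without one, 11 were called higher, with a median of 0.88 (-0.19 to 1.87), and Lars, Sars, Gars and Yars, 4 of the 8 most changed, are among them. The ranges overlapped and the difference was not tested. The 5 members with a core match in the start window had a median of 1.63, and the 8 tested members with a window and no match 0.44, of which 5 were called. Cars, Hars, Lars, Nars, Rars, Vars and Wars had no matched window and are in neither group. Their log2 changes ran from 0.56 (Hars) to 1.87 (Lars), and the difference by motif was not tested.

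**Figure D5:**
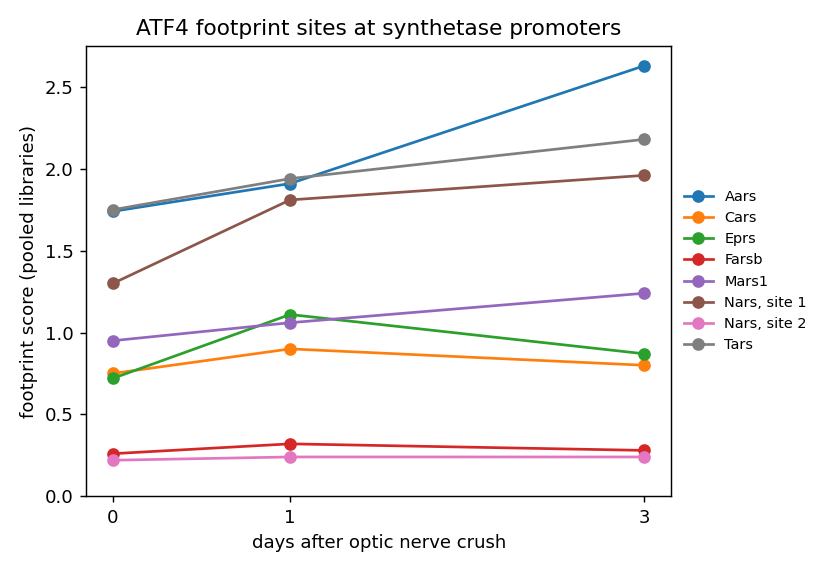
Footprint score (vertical axis, pooled libraries, no replicates) by days after crush for the 8 ATF4 sites listed in promoters of 7 cytosolic synthetases. Aars and Tars have the highest scores on day 3, and no line falls below its day 0 score because the deposited table lists no such site.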

How the data were processed

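Sorted ganglion cell libraries were analysed from the deposited tables of whole-number counts per gene (RNA) and per peak (ATAC). Per the submitters' processing notes, RNA was processed with STAR, Picard, HTSeq and edgeR (build mm10), and ATAC with Bowtie2, MACS2, ChIPseeker, featureCounts, DESeq2 and other tools (GRCm38, mm10), with versions not given in the sources used here. In RNA the kit does not mark strand, so reads of a gene and of an antisense neighbour cannot be told apart. The authors' normalized RNA values and fold changes are on a log2 scale. Each p-value in their comparison tables is the authors' own, adjusted as deposited. The share of reads that fall in peaks is a fraction, per the file headers. The deposited footprint score is 1 value per site and day over pooled libraries.

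Tests over all genes or peaks used edgeR 4.0.16 under R 4.3.3 (quasi-likelihood F test, two-sided, TMM, filterByExpr, Benjamini-Hochberg, threshold 0.05), with all libraries of an assay in 1 fit, day as the term for RNA and day plus batch for ATAC. CPM values use TMM-scaled library sizes. For the mean log2 CPM of a list, 1 was added to each CPM value. A prior count of 2 entered only the lowess correction for ATAC. An SE is the log2 fold change over the square root of its F value. Every member was counted. Library values are given for the 8 largest changes on day 3 among those called, the 3 largest falls, the mitochondrial partners of the 8, and Wars. For peaks, the strongest promoter peak of each member and any called one were considered. The members and lists were chosen with earlier results of these data known. Sequences come from RefSeq (GRCm38.p6), where 9 members had no matched window. The scripts were tested on simulated data. Alternatives for RNA were DESeq2 1.42.0 and its size factors, library size only, no filter and a minimum mean count of 20. Further ones were fits of the compared groups alone, a replicate block, 2 sequencing components as terms and limma 3.58.1 on the deposited log2 values. Each RNA library was also left out in turn. For ATAC the alternatives were DESeq2, a minimum mean count of 20, a replicate block and leaving out each library. The others for ATAC were no batch term, 1 batch, a lowess correction (span 0.3), a term for reads in peaks and peaks chosen by start window. The deviations of same-numbered ATAC libraries of days 0 and 1 had correlations of 0.152, 0.116 and 0.253, although 2 of the 3 correlated better with another number. Between days 0 and 3 the same-numbered correlations ran from -0.225 to 0.168. The reported ATAC values come from the batch term, and the fit with the replicate number as a block, from the numbers in the titles, is an alternative given beside them.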

Additional observations from a re-analysis of the deposited data

Results flagged for a closer look

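In the day 0 ATAC libraries, the strongest promoter peak of Iars stood at 38.4 CPM in replicate 6 of batch 1, apart from the next highest library at 32.5 CPM. The gap was 0.703 of the range of the 6 libraries and above Dixon's critical value for that number. This was the 1 case among 64 groups of libraries looked at, and chance gives about 5% of groups.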

How the results depend on the processing

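The counts of cytosolic members stayed within 1.5 times under every RNA alternative, and leaving out 1 library gave 7 to 9 calls on day 1, 11 to 13 on day 2, 16 or 17 on day 3 and 12 to 15 on day 4. The few mitochondrial calls moved, and the cause was not tested. On day 1 there were 2 with DESeq2 and 0 with library size only, only the groups compared, the replicate block or sequencing components as terms. On day 2 there were 2 with DESeq2, its size factors, a mean count of at least 20, the replicate block and limma. On day 4 there were 2 with only the groups compared or with sequencing components. Leaving out 1 library gave 0 to 2 on days 1 and 2, 1 to 3 on day 3 and 2 to 6 on day 4. Without day 0 replicate 1 there were 2 on days 1 and 2, without replicate 2 there were 0 on day 2, 1 on day 3 and 2 on day 4, and without replicate 3 there were 2 on day 1. Without any 1 library of day 1 there were 0 on day 1, without day 2 replicate 2 there were 0 on day 2, and without day 4 replicate 2 there were 2 on day 4.

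From day 1 to day 2, 10 to 12 members were called without 1 library. From day 2 to day 3, 13 members were called with only the groups compared and 2 with sequencing components, and leaving out 1 library gave 2 to 6 (2 without day 2 replicate 1, 4 without day 2 replicate 2, 5 without day 3 replicate 2). From day 3 to day 4 there were 2 with DESeq2, 3 with only the groups compared, 0 with sequencing components and 0 without any 1 library of these days. DESeq2's scaling moved the median log2 change of all genes by -0.021 to -0.04 and library size only by 0.072 to 0.091. Same-numbered RNA libraries of days 1 and 3 correlated with those of day 0 at -0.187 to 0.025. With 3 libraries a day this cannot settle whether the numbers pair them, and days 2 and 4 were not looked at. The replicate block changed no other RNA count past 1.5 times.

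The promoter peak calls depended on the model, and the cause was not tested. For day 1 against day 0, 0 were called without a batch term, 30 in the batch of day 1 alone, 2 with the replicate block, 21 with DESeq2, 0 after the lowess correction and 0 with the share of reads in peaks. For day 3 against day 0 the calls were 2 for peaks in start windows, 1 without a batch term, 18 in 1 batch, 10 with DESeq2 and 1 with the share of reads in peaks. For day 3 against day 1 there were 4 in 1 batch, 3 with DESeq2 and 1 with the share of reads in peaks. Leaving out 1 library gave 0 to 11, 2 to 14 and 0 to 3 calls in these comparisons. On day 1 leaving out day 0 replicate 2 gave 2, replicate 3 gave 1 and replicate 6 gave 11. On day 3 it was 3 without day 0 replicate 1 or 3 or day 3 replicate 3, 2 without day 0 replicate 2 or day 3 replicate 2, 14 without day 3 replicate 1 and 10 without day 3 replicate 5 or 6. Against day 1 it was 1, 3 and 2 without day 3 replicates 2, 3 and 4. No called value changed direction under any alternative run. Ears2 had the lowest counts of any member, 12 in 1 library.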
